A study of Mus musculus with 18 samples.

Results

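The Notch pathway was examined in the open chromatin of lung endothelial cells (ECs) through 10 of its genes: the receptors Notch1 and Notch4, the ligands Dll1, Dll4, Jag1 and Jag2, the target genes Hey1, Hey2 and Hes1, and Rbpj, which encodes the DNA-binding partner of the cleaved receptor. Accessible regions were obtained by merging the ATAC-seq peaks of 18 mice and keeping regions with a peak in at least 2 of them. A region was taken as a Notch region when 1 of the 10 genes had the RefSeq transcription start site (TSS) nearest to its midpoint, or when the midpoint lay inside the gene. Of 47338 regions in all, 49 met this rule, 6 of them only because they lie inside the gene. Each region is named by its gene and the distance of its midpoint, in kb, from the nearest TSS of that gene, with positive values downstream.

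Notch signaling passes between touching cells: a Delta-like or Jagged ligand on 1 cell binds a receptor on its neighbor, the receptor is cut by ADAM proteases and gamma-secretase, and its intracellular domain enters the nucleus, where it joins RBPJ and Mastermind proteins to turn on genes of the Hes and Hey families. In blood vessels Dll4 and Notch1 restrain the formation of tip cells during sprouting and support arterial identity, and Jag1 can oppose Dll4 in that choice. Notch4 is expressed mainly in endothelium, and the Hes and Hey proteins are transcriptional repressors.

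All samples were ECs sorted from the lungs of FVB mice carrying a Col1α1-GFP reporter, which marks collagen-producing cells. The sort kept CD31+ cells that lacked CD45, CD326 and GFP, so arterial, venous, capillary and lymphatic ECs were measured together. The mice were 2 months old in the Young Sham (n = 5) and Young Bleo (n = 4) groups and 18 months old in the Aged Sham (n = 4) and Aged Bleo (n = 5) groups. Bleo mice received bleomycin at 1 U/kg into the trachea and Sham mice received PBS, and all lungs were taken at day 30. Each list of peaks came from 1 mouse, and female and male mice were used.

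The lists held between 21050 peaks (Aged Bleo 4) and 40883 peaks (Aged Bleo 2), with a median of 25 to 33 fragments at the peak summit, so a region without a peak may still be open below this depth. In these mixtures of cells, fewer cells with an open region and a less open region in each cell cannot be told apart. The sequencing lane was read from codes in the names of the deposited lists. The sample labels do not give it, so samples with the same code may come from different runs. The code was lane 8 for all Young Sham samples and Young Bleo 4, and lane 7 for Young Bleo 1 to 3 and Aged Sham 1 to 3. It was lane 6 for Aged Sham 4 and all Aged Bleo samples. Young Sham and Aged Bleo therefore share no lane, and in that comparison lane and group cannot be told apart. Endothelial identity was checked on marker genes: all 10 endothelial markers had accessible regions, 112 in all, and none of the 5 leukocyte markers had any. All 6 arterial markers had regions (54), as did all 3 lymphatic markers (7), 3 of 4 fibroblast markers (9), 4 of 5 epithelial markers (5) and all 4 mural markers (5). Promoter regions called in all 18 samples were found at 6 endothelial, 3 arterial, 1 epithelial, 1 fibroblast, 0 mural and 0 lymphatic markers.

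Which sequences lie under these peaks is shown for regions named in the results, as 200 bases of mm10 around the strongest summit, forward strand, 5′ to 3′. Capitals mark the RBPJ core TGGGAA, the ERG core CAGGAAG and the AP-1 site TGANTCA on either strand. The first set holds the 4 regions whose peak calls differed between groups at an unadjusted Fisher's exact p of at most 0.05, at chr10:30825171-30825370, chr3:8664632-8664831, chr2:137233986-137234185 and chr12:112918039-112918238. None of the 4 passed adjustment over all regions. Only the Hey2 window holds any of the marked motifs, an AP-1 site.
Hey2 +17.5 kb: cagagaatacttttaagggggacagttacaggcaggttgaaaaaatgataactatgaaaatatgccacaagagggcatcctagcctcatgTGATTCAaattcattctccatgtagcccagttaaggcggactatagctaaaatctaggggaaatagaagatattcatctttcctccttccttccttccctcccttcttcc
Hey1 +2.3 kb: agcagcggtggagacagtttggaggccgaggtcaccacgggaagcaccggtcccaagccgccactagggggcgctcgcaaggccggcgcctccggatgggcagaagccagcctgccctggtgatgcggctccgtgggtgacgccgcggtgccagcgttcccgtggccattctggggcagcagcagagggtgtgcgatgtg
Jag1 -117.6 kb: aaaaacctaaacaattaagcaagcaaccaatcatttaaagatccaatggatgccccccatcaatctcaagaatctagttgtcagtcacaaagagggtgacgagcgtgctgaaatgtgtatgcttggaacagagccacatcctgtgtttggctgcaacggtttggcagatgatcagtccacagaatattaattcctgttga
Jag2 +11.6 kb: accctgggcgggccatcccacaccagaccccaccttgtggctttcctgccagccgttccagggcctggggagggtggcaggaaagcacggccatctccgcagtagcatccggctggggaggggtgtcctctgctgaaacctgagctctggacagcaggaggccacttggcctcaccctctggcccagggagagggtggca

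The strongest Notch1 region outside the promoter, which differed in peak strength, is shown at chr2:26475121-26475320. This window carries an ERG core.
Notch1 +28.6 kb: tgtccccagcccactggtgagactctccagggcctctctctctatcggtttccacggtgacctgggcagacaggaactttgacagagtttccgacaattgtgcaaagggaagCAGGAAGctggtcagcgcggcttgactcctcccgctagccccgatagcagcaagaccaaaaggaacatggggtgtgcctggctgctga

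The last set holds windows with RBPJ cores at a ligand, a target gene and Rbpj itself: 2 regions of Dll4 at chr2:119314952-119315151 and chr2:119327198-119327397, and 250 bases before a TSS, taken from RefSeq (GRCm38.p6), for Hey2 (chr10:30842784-30843033, reverse strand) and Rbpj (chr5:53590096-53590345, forward strand). Both Dll4 windows and the Hey2 promoter match the longer form GTGGGAA as well.
Dll4 -11.0 kb: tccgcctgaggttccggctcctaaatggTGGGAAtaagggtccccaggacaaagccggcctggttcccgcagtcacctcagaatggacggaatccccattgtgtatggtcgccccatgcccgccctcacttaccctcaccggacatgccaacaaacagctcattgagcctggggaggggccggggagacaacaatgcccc
Dll4 +1.5 kb: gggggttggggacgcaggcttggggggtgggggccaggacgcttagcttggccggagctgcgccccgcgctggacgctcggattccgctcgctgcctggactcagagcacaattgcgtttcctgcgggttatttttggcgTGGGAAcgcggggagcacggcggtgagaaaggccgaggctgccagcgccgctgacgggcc
Hey2 promoter: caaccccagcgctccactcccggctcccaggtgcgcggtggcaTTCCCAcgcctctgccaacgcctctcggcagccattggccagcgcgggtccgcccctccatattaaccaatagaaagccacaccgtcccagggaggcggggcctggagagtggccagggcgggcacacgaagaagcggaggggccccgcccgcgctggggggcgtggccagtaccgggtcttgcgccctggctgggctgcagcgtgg
Rbpj promoter: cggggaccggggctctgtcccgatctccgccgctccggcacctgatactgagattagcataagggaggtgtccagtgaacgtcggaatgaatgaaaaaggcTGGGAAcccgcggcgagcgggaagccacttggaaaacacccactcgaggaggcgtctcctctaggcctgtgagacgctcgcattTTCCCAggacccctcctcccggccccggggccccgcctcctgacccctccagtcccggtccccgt

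Each of the 10 genes had a promoter region, defined by a midpoint no more than 1000 bp before or 100 bp after one of its TSSs, and all 10 promoter regions carried a peak in all 18 mice. Among all 9693 promoter regions of the series 79.1% did so. The other 39 Notch regions were less constant, with 13 of them (33.3%) called in all 18 samples against 25.9% of all regions outside promoters. In total 23 of 49 Notch regions (46.9%) were called everywhere, compared with 36.8% of all regions. Called in 2 to 8 samples were 13 Notch regions, all outside promoters, beside 15857 of all 47338 regions and 15001 of the 37645 outside promoters.

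**Figure D1:**
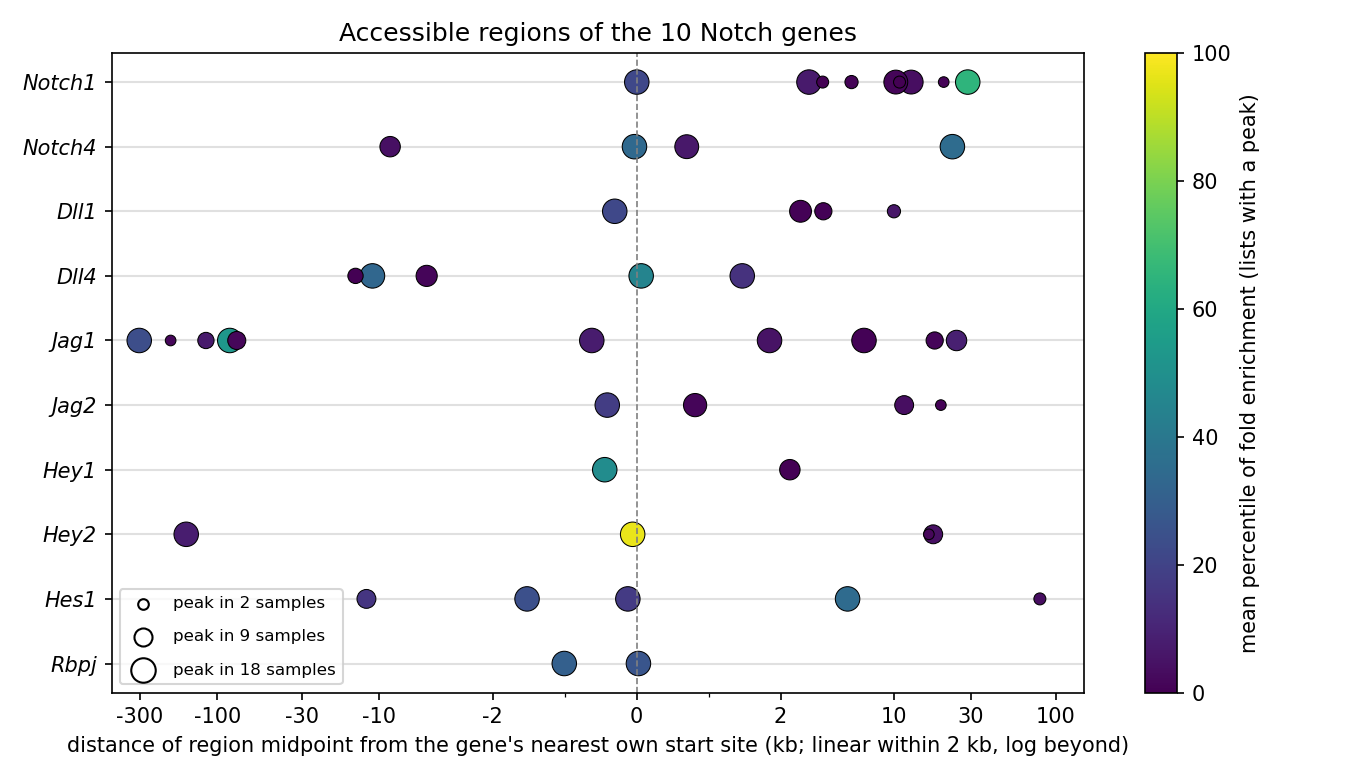
Position of the 49 regions of the 10 Notch genes. The x axis gives the distance from the gene's own TSS in kb (linear within 2 kb, logarithmic beyond), the size of a point the number of samples with a peak and its color the mean percentile of fold enrichment over the samples with a peak. Every gene has a large point near 0, and Jag1 has the most regions (10) and the most distant one.

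The strength of a peak was measured by its fold enrichment, the number of fragments at its summit plus 1, divided by the number expected from the surrounding background of that library plus 1, so that it understates the plain ratio where the background is low. Because libraries are not on a common scale, each value was ranked against the 17432 regions called in all 18 samples of the same list, so that the middle of those regions has the percentile 50. By this measure most Notch promoters were modest: their median was 23.99, against 55.5 for all promoter regions. The rank by -log10 p gives weight to the number of fragments, and on it the Notch promoters had a median of 70.2, against 57.3 for all promoters. Several Notch promoters thus held many fragments above a high local background, such as the Jag1 promoter, with 101 to 266 fragments at the summit and a median expected number of 28.4.

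Among the receptors, Notch1 (chr2:26457902-26503822, reverse strand) had 9 regions, all at the promoter or in introns. Its strongest was not the promoter but a region of intron 15, +28.6 kb (chr2:26474869-26475555), with a mean percentile of 65.1 and a fold enrichment of 11.7 to 21.2. The TSS of Mir6996 is nearer to it than that of Notch1. This region had the highest mean percentile of fold enrichment of all 39 Notch regions outside promoters, while by -log10 p it ranked below Rbpj -1.0 kb, Hes1 -1.5 kb and the intron 29 region of Notch4. The Notch1 promoter (chr2:26503524-26504114) had a mean percentile of 21.8. In intron 2 the regions at +12.8 kb and +10.3 kb were called in 17 of 18 samples and that at +3.0 kb in all 18, whereas the region at +3.6 kb was called in 3 of 5 Young Sham samples and in no other sample, and that of intron 4 at +20.3 kb in 2 of 5 Aged Bleo samples and in no other.

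Notch4 (chr17:34564295-34588543, forward strand) had 4 regions. Its promoter (chr17:34563930-34564602) and a region in intron 29 (chr17:34586740-34587863) were called in all samples with mean percentiles of 33.7 and 34.9. The intron 29 region lies closer to the TSS of Gpsm3 than to that of Notch4. The region at -8.6 kb was called in 5 of 5 Young Sham samples, 3 of 4 from Young Bleo, 2 of 4 from Aged Sham and 2 of 5 from Aged Bleo, a difference that did not pass the test in any comparison.

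The ligand genes differed in how much distal open chromatin surrounds them. Jag1 (chr2:137081451-137116520, reverse strand) had 10 regions that reached from +24.4 kb in intron 10 to -303.5 kb upstream. Its strongest, at -83.8 kb (chr2:137200024-137200630), had a mean percentile of 52.8, while its promoter (chr2:137116584-137117699) was the weakest of the 10 Notch promoters by fold enrichment, with a mean percentile of 7.76. By -log10 p the order was the reverse, with means of 39.9 for the upstream region and 68.4 for the promoter.

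Dll4 (chr2:119325784-119335666, forward strand), the ligand of arterial and tip cells, had 5 regions. Its promoter (chr2:119325483-119326212) reached a mean percentile of 45.2, the region at -11.0 kb (chr2:119314161-119315356) 32.9 and the region of intron 3 at +1.5 kb (chr2:119326970-119327534) 14.2, and all 3 were called in all 18 samples. The intron 3 region lies closer to the TSS of Gm14207 than to that of Dll4. Intron 3 of Dll4 is known to hold an arterial enhancer bound by ETS factors and RBPJ. The regions at -5.1 kb and -14.0 kb were called in 13 and 6 samples. Dll1 (chr17:15367354-15376932, reverse strand) and Jag2 (chr12:112908590-112929495, reverse strand) had 4 regions each, of which only the promoter was called everywhere, with mean percentiles of 21.7 for Dll1 and 17.8 for Jag2.

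Of the target genes, Hey2 and Hey1 had the strongest promoters of the 10 genes, and Hes1 ranked lower. The Hey2 promoter (chr10:30842451-30843223) had a mean percentile of 96.8, and no sample fell below 93.2. The Hey1 promoter (chr3:8666818-8668142) followed with 48.1, and its mean rank by -log10 p was 95.5. The Hes1 promoter (chr16:30065032-30065439) had a mean percentile of 17.3 but held 96 to 352 fragments at the summit, and Hes1 was flanked by regions at -1.5 kb (24.6) and +5.2 kb (34.4) that were called in every sample. Hes1 (chr16:30065357-30067796, forward strand) had 5 regions, Hey2 (chr10:30832359-30842783, reverse strand) 4 and Hey1 (chr3:8663359-8667038, reverse strand) 2. Outside its promoter, only the Hey2 region at -155.6 kb (chr10:30998140-30998709) was called in all samples, at a low mean percentile of 7.87.

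Rbpj (chr5:53555779-53657445, forward strand) has 3 RefSeq TSSs and had 2 regions, the promoter (chr5:53590089-53590935) with a mean percentile of 26.2 and a region in intron 1 (chr5:53589008-53589675), 1.00 kb before the nearest TSS, with 30.1. Both were called in every sample, and both ranked high by -log10 p, with means of 84.0 and 86.1.

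**Figure D2:**
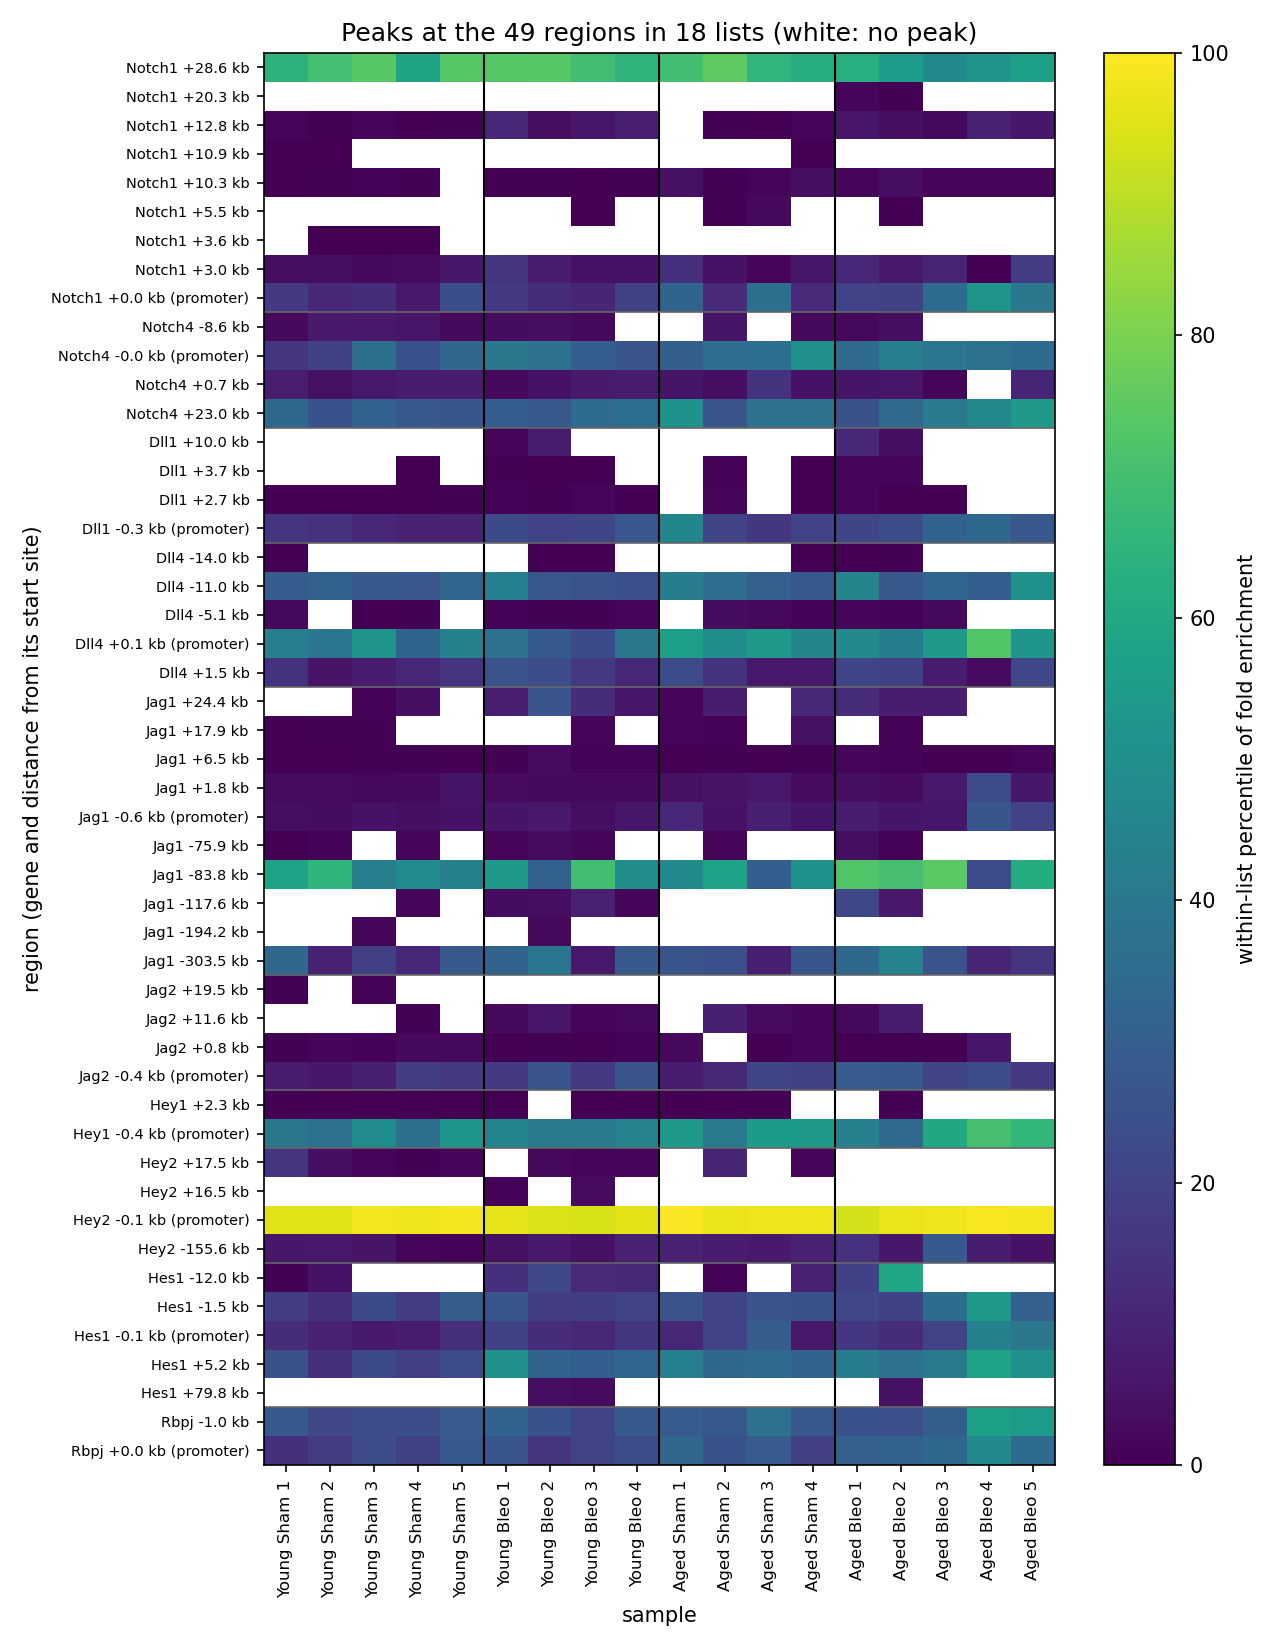
Within-list percentile of fold enrichment at the 49 Notch regions (rows, ordered by gene) in the 18 samples (columns, grouped by condition), with white where a list had no peak. The 10 promoter rows are filled in every column, the Hey2 promoter is the strongest row throughout, and the white cells are most frequent in the samples with the fewest peaks, such as Aged Bleo 4 and Aged Bleo 5 with 26 regions each.

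The number of Notch regions with a peak averaged 35.8 ± 3.35 (SD) of 49 in Young Sham, 39.5 ± 3.42 in Young Bleo, 34.0 ± 4.69 in Aged Sham and 32.8 ± 7.79 in Aged Bleo. The single samples gave 38, 36, 37, 38 and 30 in Young Sham, 39, 41, 43 and 35 in Young Bleo, 29, 38, 31 and 38 in Aged Sham and 39, 43, 30, 26 and 26 in Aged Bleo, so the groups overlap. The counts moved with the size of the list: the 4 smallest lists (21050 to 26886 peaks) gave 26 to 31 regions, and the 3 largest (39310 to 40883 peaks) gave 41 to 43. As shares, 73.1% of Notch regions were called in Young Sham, 80.6% in Young Bleo, 69.4% in Aged Sham and 66.9% in Aged Bleo, beside 71.9%, 75.1%, 59.2% and 62.9% of all regions. Whether list size accounts for the differences between groups was not tested.

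**Figure D3:**
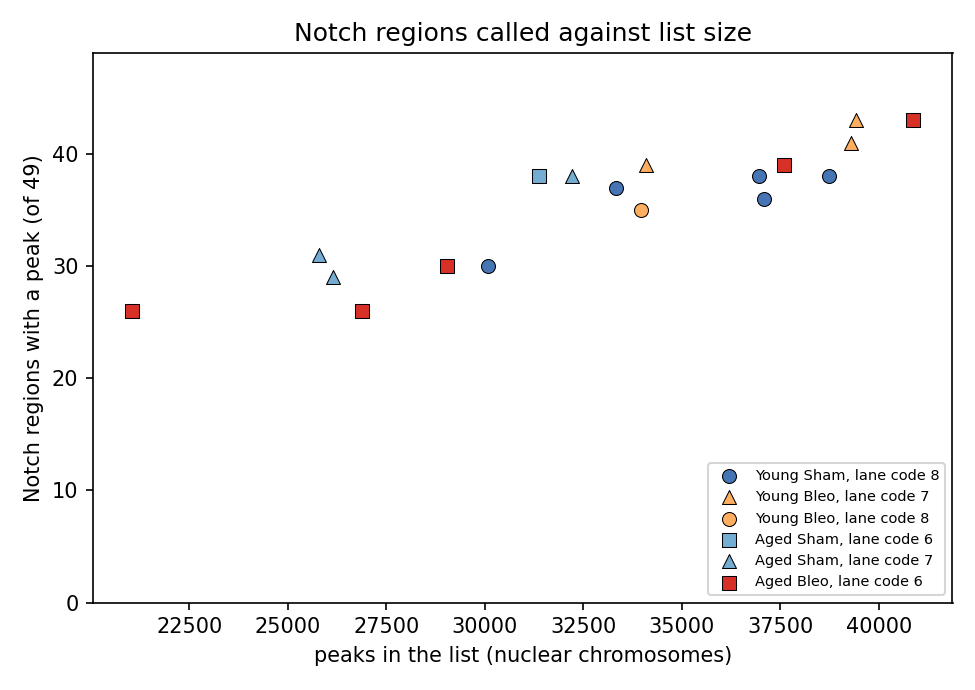
Number of the 49 Notch regions with a peak (y axis) against the number of nuclear peaks in the list (x axis), 1 point per mouse, with the color giving the group and the shape the sequencing lane. Samples of all groups lie along 1 rising band, from 26 regions at 21050 peaks to 43 regions at 40883 peaks.

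By gene, the count of called regions varied most at Jag1 and least at Rbpj, which had 2 in every sample. Hey2 had 3 called regions in each Young Sham sample and 2 in each Aged Bleo sample, with 3.25 ± 0.50 in Young Bleo and 2.50 ± 0.58 in Aged Sham. Hes1 had 3.40 ± 0.55 in Young Sham, 4.50 ± 0.58 in Young Bleo, 3.50 ± 0.58 in Aged Sham and 3.60 ± 0.89 in Aged Bleo. Jag1 had 7.0 ± 1.22, 8.25 ± 0.96, 6.75 ± 1.26 and 6.60 ± 1.82 in the same order, and Notch1 between 5.25 and 5.80 on average in each of the 4 groups.

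To ask whether age or injury opened or closed Notch regions, the number of samples with a peak was compared between groups for each of the 47338 regions by Fisher's exact test (two-sided), and a region was called at an unadjusted p of at most 0.05. No region passed Benjamini-Hochberg adjustment in any comparison, where the smallest adjusted p was 0.535. The smallest p that these group sizes allow is 0.00794, and each call given here is an unadjusted one.

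Bleomycin in young mice: 2 of 49 Notch regions were called more often in Young Bleo than in Young Sham and 0 less often, beside 3.98% of all regions called more often, 1.96% less often and 5.94% in either direction. The 2 make up 4.08% of the Notch regions, close to the share of all regions called more often. They lie at Jag1 and Jag2, which hold 10 and 4 of the 49 regions, and whether Jagged genes are overrepresented was not tested. The region 117.6 kb upstream of Jag1 (chr2:137233985-137234267) had a peak in Young Bleo 1, 2, 3 and 4, with fold enrichments of 6.34, 6.81, 8.96 and 5.50, and among Young Sham samples only in Young Sham 4, at 5.34 (Fisher's exact p = 0.0476, adjusted p = 0.801 over all regions). The region was called in 2 of 5 Aged Bleo samples, at 10.8 and 8.89, and in no Aged Sham sample.

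The region of Jag2 intron 5 at +11.6 kb (chr12:112917515-112918297) gave the same counts, 4 of 4 Young Bleo against 1 of 5 Young Sham (Fisher's exact p = 0.0476, adjusted p = 0.801). Its fold enrichments were 5.84, 7.74, 5.94 and 5.58 in Young Bleo and 4.58 in Young Sham 4, with 11 to 36 fragments at the summit over all samples. It was also called in 3 of 4 Aged Sham and 2 of 5 Aged Bleo samples. The TSS of Mir6941 is nearer to it than that of Jag2. In lane 8, the only lane with both young groups, both Jagged regions had a peak in the single Young Bleo sample and in 1 of 5 Young Sham samples. Both calls were lost when any single Young Bleo sample, or any Young Sham sample other than Young Sham 4, was left out (exact p = 0.143). With groups of this size, the counts of samples fix that loss in advance. In these fits the difference in the share of samples with a peak was 0.75 or 0.8, beside 0.8 with all samples.

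Bleomycin-treated aged mice against young sham: 2 of 49 Notch regions were called less often in Aged Bleo than in Young Sham and 0 more often, beside 3.01% of all regions less often, 0.201% more often and 3.21% in either direction. The 2 called less often make up 4.08% of the Notch regions, beside the 3.01% of all regions. They lie at the target genes Hey2 and Hey1, and whether target genes are overrepresented was not tested. With the same number of peaks taken from each list, 1 of the 35 Notch regions then left was called less often and 2 were called more often, beside 3.06% of all regions called in either direction. The region 17.5 kb downstream of the Hey2 TSS (chr10:30825107-30825429), which lies beyond the 3′ end of the gene, had a peak in all 5 Young Sham samples and in 0 of 5 Aged Bleo samples (Fisher's exact p = 0.00794, the smallest these groups allow, and adjusted p = 1). Its fold enrichments in Young Sham 1 to 5 were 10.6, 6.87, 5.40, 4.58 and 5.50, on 11 to 23 fragments. It was called in 3 of 4 Young Bleo and 2 of 4 Aged Sham samples, and the Aged Bleo lists without it hold 21050 to 40883 peaks, beside 30073 to 38747 in Young Sham.

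The Hey1 region at +2.3 kb (chr3:8664605-8664905), in coding exon 5, was called in 5 of 5 Young Sham and 1 of 5 Aged Bleo samples, and in 3 of 4 samples of each remaining group (Fisher's exact p = 0.0476 for Aged Bleo against Young Sham, adjusted p = 1). It is a weak peak on a high local background: fold enrichment was 2.61 to 3.65 over all samples although 54 to 133 fragments lay at the summit. Both calls held with every single library left out, which the counts of samples fix in advance, so this shows no robustness. With the same number of peaks taken from each list the Hey1 call held (Fisher's exact p = 0.00794) and the Hey2 call did not (p = 1, with a difference of -0.2 in the share of samples).

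Age without injury, and bleomycin within aged mice: no Notch region was differentially called in Aged Sham against Young Sham, where 5.17% of all regions were called, 4.9% less often and 0.264% more often. None was called in Aged Bleo against Aged Sham either, where 0.885% of all regions were called, 0.41% less often and 0.475% more often. Neither count of 0 held under every alternative. With peaks limited to a fold enrichment of at least 5, 3 of 42 were called in the first comparison, all more often (4.58% of all regions in either direction). In the second 1 of 42 was called (0.999%). With equal list sizes the counts were 1 of 35 (2.92%) and 2 of 35 (1.48%). With the nearest TSS over NM transcripts, 4 of 84 were called in the first, all less often (5.17%), and 0 in the second. The shares of all regions beside these alternatives are for either direction.

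Regions called in every sample cannot differ in presence, so for the 23 Notch regions of this kind the percentiles themselves were compared, with limma over all 17432 regions in 1 fit of the 4 groups and Benjamini-Hochberg adjustment. In Aged Bleo against Young Sham 5 of 23 Notch regions differed, beside 10.7% of all regions. Of these, 4 were higher (5.43% of all regions) and 1 was lower (5.24%). By -log10 p in place of fold enrichment, 9 of 23 were called, 9 higher and 0 lower, beside 2387 higher and 2569 lower of all regions. With log2 fold enrichment centered on the median of the list in place of the percentile, 1 of 23 was called, beside 2177 of all 17432 regions. Leaving out single libraries gave 1 (without Young Sham 2, beside 1005 of all regions) to 7 (without Aged Bleo 2 or Aged Sham 3, beside 1987 and 1841). The 5 regions were the promoters of Rbpj, Dll1 and Jag2, the downstream region of Hes1 and the intron 15 region of Notch1.

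The largest difference was at Hes1 +5.2 kb, downstream of the gene. Its percentiles were 24.7, 13.99, 22.5, 19.1 and 23.4 in Young Sham 1 to 5 and 41.8, 37.4, 40.6, 58.0 and 50.4 in Aged Bleo 1 to 5, with no overlap between the groups. The means of the other groups lay between, and both overlapped Aged Bleo, at 50.1, 32.0, 29.8 and 32.7 in Young Bleo and 43.3, 33.9, 34.3 and 32.0 in Aged Sham, and each of these samples was above every Young Sham sample. Aged Bleo was 24.9 ± 4.95 percentile points (SE) above Young Sham (limma adjusted p = 0.00584). By limma, the differences of Young Bleo (15.4 ± 5.25, adjusted p = 0.122) and Aged Sham (15.1 ± 5.25, adjusted p = 0.164) from Young Sham did not pass the test. Within lane 8, Young Bleo 4 (32.7) was above the 5 Young Sham samples, and within lane 6, Aged Sham 4 (32.0) was below the 5 Aged Bleo samples. This call alone among the 5 held with every single library left out, with adjusted p from 0.00414 to 0.0211.

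The Rbpj promoter had percentiles of 14.03, 17.7, 23.03, 19.9 and 27.4 in Young Sham and 30.8, 31.2, 33.8, 47.6 and 35.2 in Aged Bleo, again without overlap, a difference of 15.3 ± 4.08 (limma adjusted p = 0.0242). Young Bleo lay at 21.3 ± 4.82 (SD) and Aged Sham at 26.5 ± 5.97. By -log10 p in place of fold enrichment the sign of this difference turned, to -1.69 points (limma adjusted p = 0.477), so the Rbpj promoter was higher on only 1 of the 2 measures of strength.

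The Dll1 promoter (chr17:15375664-15376587) was lowest in Young Sham, at 15.3, 14.2, 11.5, 9.90 and 10.03. It reached 21.1, 23.2, 31.6, 33.4 and 27.3 in Aged Bleo, 15.1 ± 4.53 points higher (limma adjusted p = 0.0404), and 22.3, 19.97, 20.7 and 27.05 in Young Bleo. Aged Sham gave 45.8, 20.6, 15.8 and 19.9, and all 13 samples of the other groups were above all 5 Young Sham samples.

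The Jag2 promoter (chr12:112929466-112930338) had percentiles of 8.15, 6.58, 8.85, 18.0 and 16.5 in Young Sham and 28.6, 28.4, 20.6, 22.8 and 16.97 in Aged Bleo, which overlap at 1 sample, with a difference of 11.9 ± 3.56 (limma adjusted p = 0.0409). Young Bleo lay at 21.4 ± 5.53 (SD) and Aged Sham at 14.98 ± 6.35.

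Of the 5 regions only that of Notch1 intron 15 was lower. It had percentiles of 64.5, 70.3, 73.9, 58.5 and 73.6 in Young Sham, 73.7, 74.1, 69.2 and 64.9 in Young Bleo, 69.8, 75.4, 65.9 and 62.5 in Aged Sham and 62.9, 55.4, 47.8, 52.2 and 56.5 in Aged Bleo. Aged Bleo stood below the 3 other groups, with only Aged Bleo 1 reaching into their range, and was 13.2 ± 3.90 points below Young Sham (limma adjusted p = 0.0380). By -log10 p the difference was -4.32 points (limma adjusted p = 0.354), and by centered log2 fold enrichment -0.20 (limma adjusted p = 0.0798), neither of which passed. The difference from Aged Sham was -13.4 ± 4.14, which did not pass the test (limma adjusted p = 0.117), and the test of a different bleomycin response in aged and young mice gave -15.7 ± 5.86 (adjusted p = 0.419). Within lane 6, Aged Sham 4 (62.5) lay below Aged Bleo 1 (62.9) and above the other Aged Bleo samples.

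**Figure D4:**
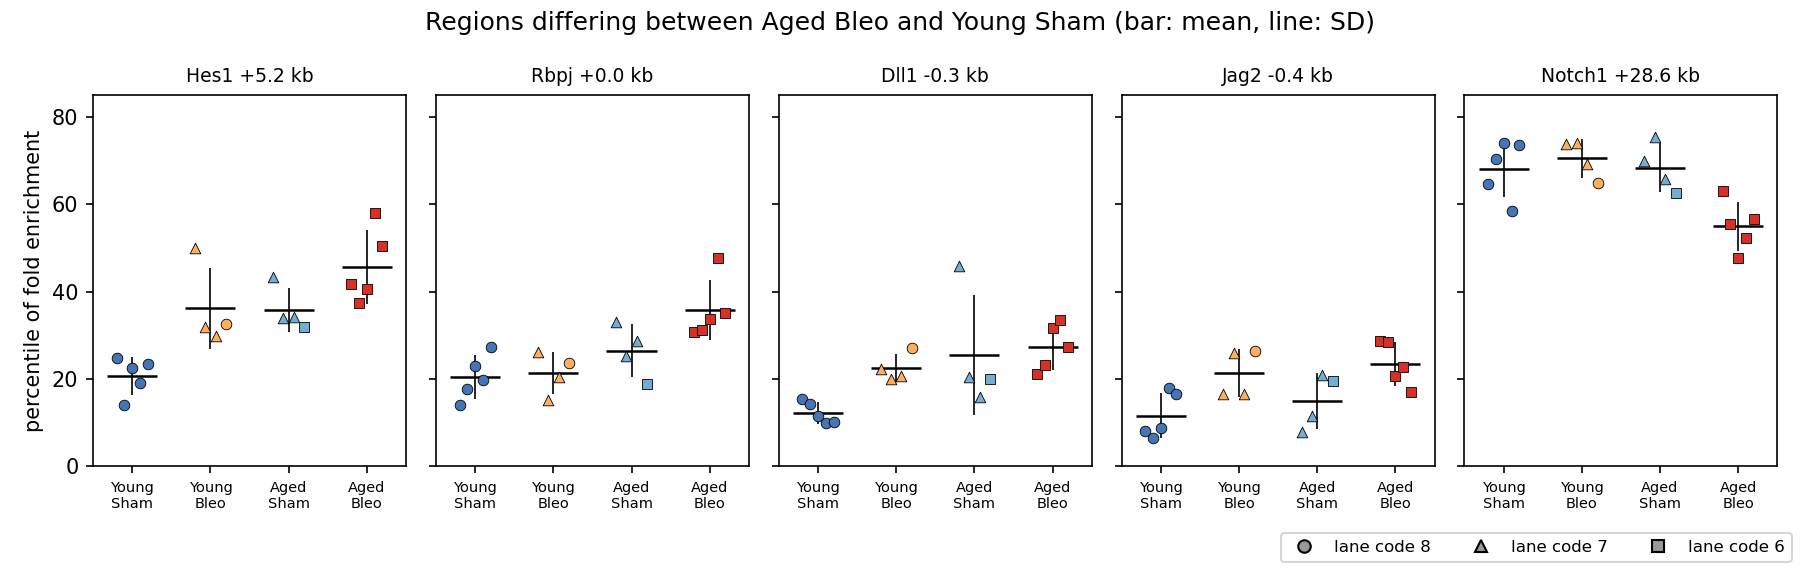
Percentile of fold enrichment in each mouse for the 5 Notch regions that differed between Aged Bleo and Young Sham, by group, with the shape of a point giving the sequencing lane, a bar the mean and a line the SD. Hes1 +5.2 kb, Rbpj +0.0 kb, Dll1 -0.3 kb and Jag2 -0.4 kb are lowest in Young Sham and highest on average in Aged Bleo, and Notch1 +28.6 kb is lowest in Aged Bleo. Young Sham points are all of lane 8 and Aged Bleo points all of lane 6.

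Without Aged Bleo 4, the list with the fewest peaks, 2 of the 5 regions passed the test, Hes1 +5.2 kb (21.8 points, limma adjusted p = 0.0112) and the Rbpj promoter (12.3 points, adjusted p = 0.0481). The others kept their sign in limma, at -12.5 points for the Notch1 region (adjusted p = 0.0667), 12.02 for the Jag2 promoter (0.0567) and 13.6 for the Dll1 promoter (0.0789). With the sequencing lane as a term in the model no Notch region passed: the differences were 25.5 at Hes1 +5.2 kb, 28.5 at the Rbpj promoter, 28.6 at the Dll1 promoter, 12.5 at the Jag2 promoter and -12.8 at Notch1 +28.6 kb, with adjusted p from 0.586 to 0.757. All 5 differences are between groups that share no lane code.

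Of the 23 regions 22 had a higher mean percentile in Aged Bleo than in Young Sham, with a median difference of 11.2 points, against 0.336 points and 52.2% of regions over all 17432. The count above 0 was 21 of 23 in Aged Sham against Young Sham (median 4.37, all regions 0.427), 18 in Young Bleo against Young Sham (1.55, all regions -0.03) and 20 in Aged Bleo against Aged Sham (3.87, all regions 0.104). By -log10 p, 19 of 23 were above 0 in Aged Bleo against Young Sham (median 7.59, all regions -0.183). For the other comparisons, in the order above, the counts by -log10 p were 16 (1.85), 18 (3.76) and 19 (5.34). The medians over all regions were -0.100, -0.075 and -0.032. By fold enrichment without Young Bleo 1, 13 were above 0 in Young Bleo against Young Sham (median 1.22, all regions -0.091). Among regions at least as wide as the median Notch region the median in Aged Bleo against Young Sham was 2.19 points by fold enrichment. Of these wide regions 63.6% were above 0. In Aged Sham against Young Sham their median was 2.02 points (66.0% above 0). It was -0.198 (48.6%) in Young Bleo against Young Sham and 0.306 (52.4%) in Aged Bleo against Aged Sham. In Aged Bleo against Young Sham the unadjusted limma p was at most 0.05 at 13 of 23 Notch regions, the 5 called ones included, and at 4856 of all 17432. Among those not called were the promoters of Notch1, with 14.4 ± 6.42 in Young Sham and 33.3 ± 13.7 in Aged Bleo (SD, limma adjusted p = 0.0516), Hes1, with 10.1 ± 2.94 and 26.5 ± 14.3 (0.0575), and Jag1, with 4.04 ± 0.64 and 13.4 ± 9.66 (0.0667). In these 3 the high values came mainly from Aged Bleo 4 and Aged Bleo 5, at 51.9 and 39.7 for Notch1, 44.0 and 39.6 for Hes1 and 26.7 and 20.5 for Jag1. The Hey2 promoter lay at 93.2 or above in every sample, where the percentile has little room to differ.

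**Figure D5:**
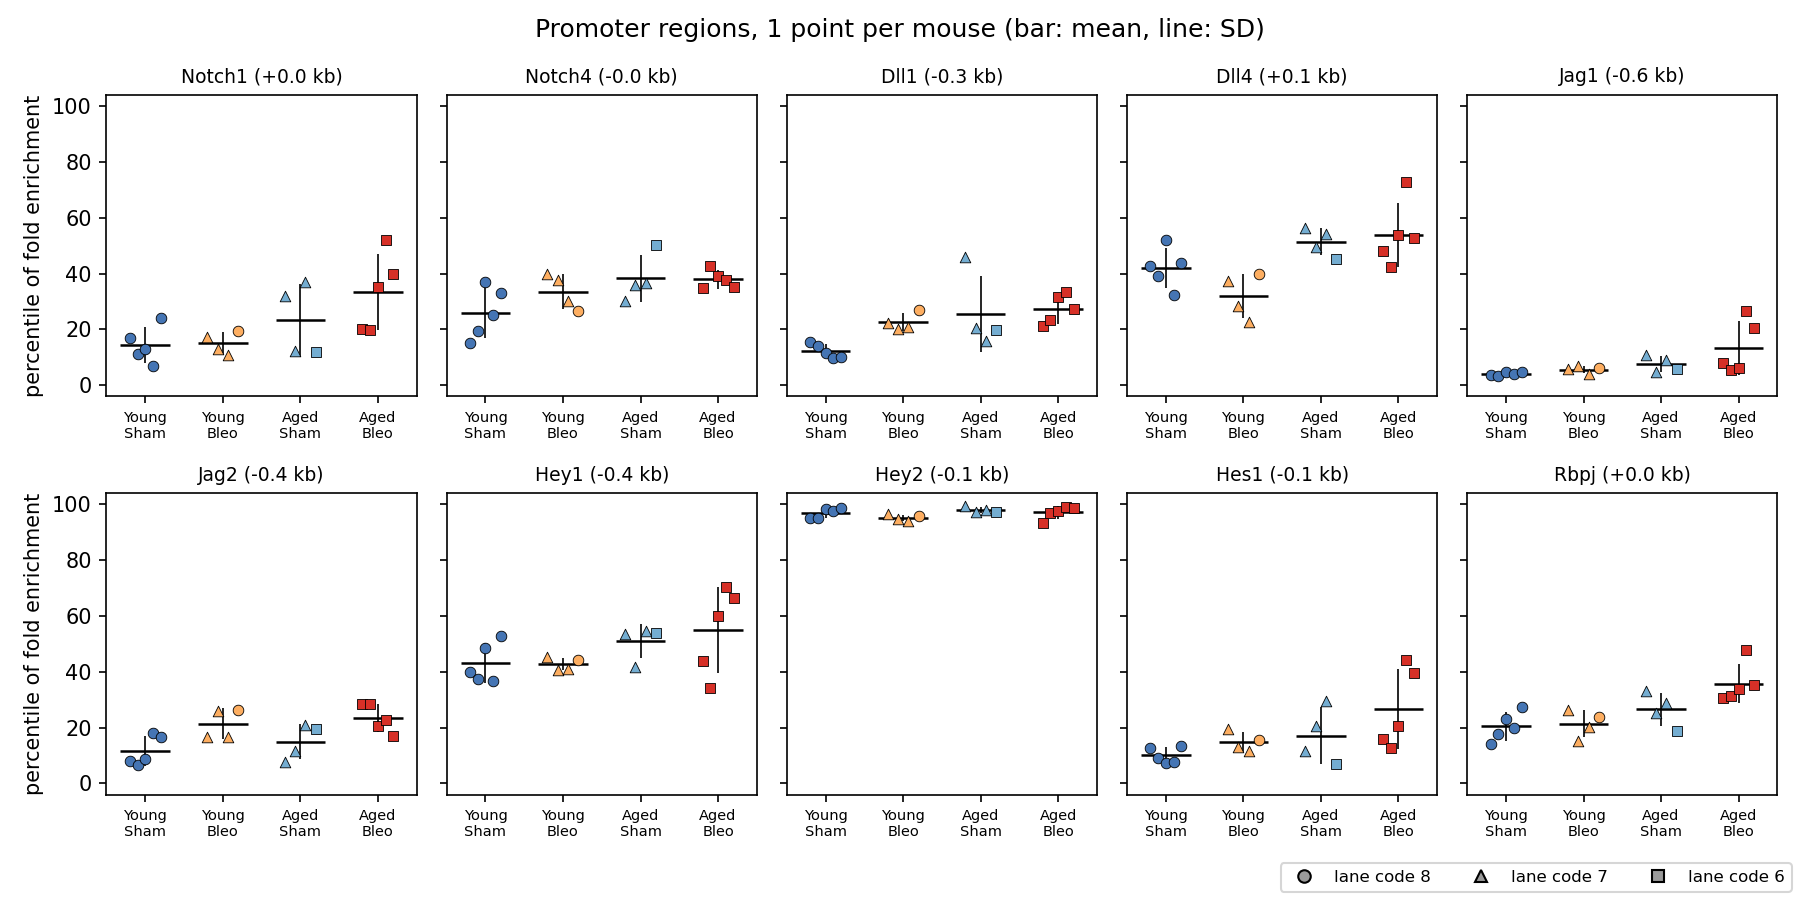
Percentile of fold enrichment at the promoter regions of the 10 Notch genes, 1 point per mouse, by group, with the shape giving the sequencing lane, the bar the mean and the line the SD. The Hey2 promoter lies at 93.2 or above in all samples, Hey1 and Dll4 follow with means of 48.1 and 45.2, and the Jag1 promoter is lowest with a mean of 7.76.

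In the remaining comparisons no Notch region passed the test of strength by fold enrichment. The count was 0 of 23 in Aged Sham against Young Sham (1.02% of all regions called), 0 in Young Bleo against Young Sham (3.11%) and 0 in Aged Bleo against Aged Sham (0.677%), and 3 Notch regions had an unadjusted limma p of at most 0.05 in each of these 3 comparisons, beside 2762, 3105 and 2808 of all 17432 regions. By -log10 p, in the same order, 0, 4 and 5 of 23 were called, beside 1076, 2731 and 2701 of all regions. By fold enrichment the lowest limma adjusted p were 0.164, 0.122 and 0.117 in turn. For the difference of the bleomycin response between ages, limma called 0% of all regions at an adjusted p of at most 0.05, with 1625 of 17432 at an unadjusted p of at most 0.05. The Dll4 promoter shows the spread behind these counts: its percentiles were 42.8, 39.1, 51.8, 32.3 and 43.8 in Young Sham, 37.2, 28.3, 22.5 and 39.9 in Young Bleo, 56.3, 49.7, 54.0 and 45.4 in Aged Sham and 48.0, 42.2, 53.9, 72.8 and 52.8 in Aged Bleo, so that Young Bleo overlapped Young Sham but not the aged groups. The comparisons with Young Sham share its 5 samples and are not independent of each other.

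Short motifs were searched, on either strand, in windows of 200 bp centered on the highest summit. The RBPJ core TGGGAA was found at 17 of 49 Notch regions (34.7%) and at 19.5% of all regions. The longer GTGGGAA, which contains the core, was found at 9 Notch regions (18.4%) and at 4.83% of all regions. These 9 were Notch1 +12.8 kb, Notch4 +0.7 kb, Dll4 -14.0 kb, -11.0 kb and +1.5 kb, Jag1 -75.9 kb, the Hey2 and Hes1 promoters and Rbpj -1.0 kb, and the Hes1 promoter held the core 2 times. Hes and Hey promoters are textbook targets of RBPJ, as background to these matches.

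The ERG core CAGGAAG was found at 7 Notch regions (14.3%) and at 19.99% of all regions, and none of the 7 windows is that of a promoter region. The AP-1 site TGANTCA was found at 6 (12.2%, all 8.72%), again at no promoter region, the SOX core ACAAAG at 10 (20.4%, all 16.8%), the E-box CACGTG at 2 (4.08%, all 5.25%) and the FOX core GTAAACA at 1 (2.04%, all 4.43%). In the 250 bases before the TSS, for which RefSeq sequences of 8 of the 10 genes were at hand, the RBPJ core begins 207 bases before the Hey2 TSS and 149 and 65 bases before the Rbpj TSS whose promoter is printed. In the same stretch the Notch4 promoter holds an ERG core that begins 245 bases before the TSS, and a Dll1 promoter an AP-1 site that begins 109 bases before it. Among 32851 promoters of this length 21.6% hold the core and 2.77% hold it at least 2 times. These matches describe the sequence and show no binding.

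Of 34 other genes of the pathway, 32 had accessible regions, 121 in all, of which 49 (40.5%) were called in every sample. Promoter regions called in all 18 samples were present at 18 of the 34, among them the receptor Notch2, with a mean percentile of 94.6, the protease gene Adam17 (95.0), Spen (85.4), which encodes a corepressor bound by RBPJ, and Mib1 (91.3), which encodes a ubiquitin ligase for the ligands. No region was found for Dll3 or Hes5. Regions called less often than in Young Sham numbered 7 in Aged Sham, 4 in Aged Bleo and 3 in Young Bleo, and those called more often numbered 0, 0 and 2, all at Fisher's exact p of at most 0.05, and 0 differed between Aged Bleo and Aged Sham. Over all regions 4.9%, 3.01% and 1.96% were called less often and 0.264%, 0.201% and 3.98% more often in the same comparisons.

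Of the 7 regions less often called in Aged Sham, 6 belong to the coactivator genes Maml2 and Maml3, which hold 20 and 25 of the 121 regions. The Maml2 region at -9.6 kb was called in 5 of 5 Young Sham samples and in no sample of the other groups, and that at -98.6 kb in all Young Sham and Young Bleo samples, 0 of 4 from Aged Sham and 2 of 5 from Aged Bleo (Fisher's exact p = 0.00794 for Aged Sham against Young Sham in both). In Young Bleo, a region of Dtx1 at +5.0 kb was called in 4 of 4 samples and in no sample of the other groups, and a region of Numb, a Notch inhibitor, at -4.2 kb in 3 of 4 samples and in 1 Aged Bleo sample.

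In strength, 9 of the 49 other-gene regions called everywhere differed between Aged Bleo and Young Sham, 3 higher and 6 lower, and 4 differed between Young Bleo and Young Sham, with 0 in each of the other comparisons, beside 10.7% and 3.11% of all regions. With lane as a term, none of all 17432 regions passed in Aged Bleo against Young Sham. Their median difference in Aged Bleo against Young Sham was 0.182 points, with 25 of 49 above 0. The Spen promoter was 13.5 ± 2.41 points higher (limma adjusted p = 0.00310), while the other Spen region differed by -27.8 ± 7.19 (limma adjusted p = 0.0209). The promoter of Snw1, which encodes a coactivator that binds the receptor's intracellular domain, differed by -17.1 ± 3.39 (adjusted p = 0.00584).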

How the data were processed

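ATAC-seq was measured in sorted lung ECs, 1 list of peaks for each of 18 mice, with 5 Young Sham and 5 Aged Bleo mice and 4 in each other group. Per the study's methods, the authors aligned reads with BWA, marked duplicates with Picard and called peaks with MACS2 at a false discovery rate of 1%. The deposited files hold 1 list per sample and give, per peak, a fold enrichment (the ratio of summit fragments to the local background, each plus 1), −log10 p and −log10 q as the authors' MACS2 wrote them, and a score, which the authors' pipeline derived and which was not used here. Coordinates are mm10.

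Peaks on chromosomes 1 to 19, X and Y (593980; 19 mitochondrial peaks were left out) were merged when they overlapped by at least 1 bp, and regions with a peak in at least 2 lists were kept. Genes and TSSs came from RefSeq (GRCm38.p6). Presence was tested by two-sided Fisher's exact test. Strength was the percentile of fold enrichment within each list, tested with limma 3.58.1 (4 groups, trended variance, Benjamini-Hochberg adjustment over 17432 regions, threshold 0.05), run in R 4.3.3, and other steps used Python 3.11.15 with scipy 1.17.1. Fragment numbers at summits were solved from fold enrichment and −log10 p. P-values reflect the spread between mice. Samples were grouped by their labels. The lane was read from codes in the names of the lists.

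Named regions were the promoters, the strongest region outside the promoter of each gene, and regions called in a comparison, and other regions were named after their values were seen. The 10 genes, the other pathway genes and the marker lists were chosen with earlier results of these data known. The alternatives were stricter peaks, equal list sizes, a peak in 3 samples, 50% cover, other gene assignments, −log10 p or centered log2 fold enrichment in place of the percentile of fold enrichment, a minimum fold enrichment in every sample, lane as a term, the replicate number as a block, and leaving out each library.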

Additional observations from a re-analysis of the deposited data

Results flagged for a closer look

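Of 74 sets of 4 or 5 samples checked for a single value far from the others, 8 held one, where chance gives about 1 in 20. In Aged Bleo, Aged Bleo 4 had a percentile of 47.6 at the Rbpj promoter, with the others at 30.8 to 35.2, and 22.8 at Jag1 -83.8 kb, with the others at 62.0 to 74.4. In Aged Sham, the Dll1 promoter stood at 45.8 in Aged Sham 1 against 15.8 to 20.6, and the Hey1 promoter at 41.7 in Aged Sham 2 against 53.7 to 54.7. In Young Bleo, Young Bleo 1 was high at Hes1 +5.2 kb (50.1 against 29.8 to 32.7) and at Dll4 -11.0 kb (43.1 against 24.5 to 27.3), and Young Bleo 2 at Jag2 +11.6 kb (6.18 against 1.68 to 2.40). In Young Sham, Young Sham 5 had a peak at 30 Notch regions against 36 to 38 in the others, and its list was the smallest of the group, with 30073 peaks.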

How the results depend on the processing

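The number of Notch regions with differing peak calls changed with the peak threshold, the list size and the gene assignment. The shares of all regions given beside these counts are for either direction. In Aged Sham against Young Sham it went from 0 of 49 to 2 of 47 with −log10 q of at least 5 (5.42% of all regions), 3 of 42 with fold enrichment of at least 5 (4.58%), 1 of 35 with equal list sizes (2.92%), all more often, and 4 of 84 with the nearest TSS over NM transcripts alone (5.17%), all less often. In Young Bleo against Young Sham it went from 2 to 4 of 42 with fold enrichment of at least 5 (6.12%) and to 1 of 43 with the nearest TSS alone (5.94%), in Aged Bleo against Young Sham from 2 to 1 of 42 with fold enrichment of at least 5 (2.86%), and in Aged Bleo against Aged Sham from 0 to 1, 2 and 1 with fold enrichment of at least 5 (0.999%), equal list sizes (1.48%) and 50% cover (1.17%). Leaving out 1 library gave 0 in Aged Sham against Young Sham (1.15% to 2.15% of all regions) and 0 to 2 in Young Bleo against Young Sham (1.69% to 3.08%). It gave 2 to 3 in Aged Bleo against Young Sham (3.73% to 5.86%) and 0 in Aged Bleo against Aged Sham (0.104% to 0.27%). With all libraries these shares of all regions were 5.17%, 5.94%, 3.21% and 0.885%, so the share over all regions moved in the same fits. The Jag2 +11.6 kb call was lost at 50% cover (exact p = 0.524). With equal list sizes the 2 Jagged regions could not be evaluated, nor could Hey1 +2.3 kb with fold enrichment of at least 5. With the nearest TSS alone, Jag2 +11.6 kb could not be evaluated.

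For strength, the number of all regions that differed was, against Young Sham, 178 for Aged Sham, 542 for Young Bleo and 1860 for Aged Bleo, then 118 in Aged Bleo against Aged Sham and 0 for the difference between ages. With the percentile of −log10 p these became 1076, 2731, 4956, 2701 and 19, of which 0, 4, 9, 5 and 0 were Notch regions, and with lane as a term 0, 1, 0, 0 and 0. Leaving out 1 library gave 47 to 268, 159 to 669, 1005 to 1987, 9 to 166 and 0 to 2. With centered log2 fold enrichment the counts were 200, 387, 2177, 161 and 0, of which 0, 0, 1, 0 and 0 were Notch regions. Of the 5 Notch calls only Hes1 +5.2 kb held (limma adjusted p = 0.00565), with 0.0728 to 0.142 at the others. By −log10 p the Rbpj promoter reversed, to -1.69 in Aged Bleo against Young Sham. With 1 library left out of 18 in turn, the limma call held in 18 fits at Hes1 +5.2 kb, 15 at the Rbpj promoter, 12 at Notch1 +28.6 kb, 12 at the Jag2 promoter and 10 at the Dll1 promoter. The cause of these changes was not tested.

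Samples with the same replicate number share only a number: of 25 same-numbered pairs 5 had a correlation of deviations above 0.1. With the replicate block the counts were 126, 367, 1833, 6 and 0, with 3 Notch regions in Aged Bleo against Young Sham. The depth of each list may limit presence calls at weak regions, which was not tested.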
